A study of Homo sapiens with 6 samples.

Results

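The genes described here are those that drive and brake the passage from G1 into S phase: the cyclins CCND1, CCND3, CCNE1 and CCNE2, the cyclin-dependent kinases CDK2, CDK4 and CDK6, and the CDK inhibitors CDKN1B, CDKN2B and CDKN2C. They were taken by name, and a probe set was used if the platform annotation gives it exactly 1 symbol and that symbol is in the list. Of the 10 genes listed, 9 had such probe sets (26 of 44988, for 9 of 18132 genes); CDKN2C has none in the annotation used and is not analysed here. RNA came from 3 arrays of cells given an shRNA against SHCBP1 and 3 arrays of cells given a control shRNA, both delivered by lentivirus. The titles and cell line field name the cells as TPC-1, a human papillary thyroid carcinoma line, but the RNA extraction text of the same labels speaks of DLD1, a colorectal carcinoma line. All 6 samples are labelled alike in cell line and medium, and the labels mention neither a second construct against SHCBP1 nor a rescue. The labels do not say that the samples came from separate cultures, so the p-values cover array-to-array spread that may be only technical.

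D-type cyclins (CCND1, CCND3) bind CDK4 and CDK6 in early G1, and these kinases begin the phosphorylation of the retinoblastoma protein that releases E2F transcription factors. E-type cyclins (CCNE1, CCNE2), themselves transcribed by E2F, then bind CDK2, complete that phosphorylation and start DNA replication. INK4 inhibitors such as CDKN2B (p15) and CDKN2C (p18) block CDK4 and CDK6, while CDKN1B (p27) restrains cyclin E-CDK2. In thyroid carcinomas, more cyclin D1 and less p27 protein are well-known features.

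A deposited value is a log2 value from RMA, centred so that the 6 values of a probe set have a median of 0. It compares arrays and holds no expression level, so the abundance of 1 cyclin cannot be set against that of another, and the thyroid or colorectal identity of the cells could not be checked from levels. For a probe set whose groups do not overlap, the centring also makes the innermost values of the groups equal in size and opposite in sign. A gene's value is the mean of its probe sets. SHCBP1 itself averaged -0.81 in the SHCBP1 shRNA arrays and 0.73 in the control arrays, a 2.91-fold lower value. Poly-A spike-in transcripts, which are mixed into the RNA ahead of labelling, read 0.43 log2 higher with the SHCBP1 shRNA on average over 24 probe sets, with array means from 0.17 to 0.24 in the SHCBP1 shRNA arrays and from -0.29 to -0.17 in the control arrays. Each change below is thus relative to the remaining genes, and the part of this shift in the results was not tested. In bulk RNA, a different share of cells in G1 and a different amount of RNA per cell cannot be told apart.

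Of the 9 measured genes, 7 rose in the SHCBP1 shRNA arrays and 0 fell (0 also at an unadjusted p under 0.05), at a Benjamini-Hochberg adjusted p under 0.05 in limma's moderated test fitted over all genes. Over all 18132 genes the same test called 22% higher and 19% lower. The risers were all 3 kinases, both E-type cyclins, CCND3 and CDKN1B, and the 2 that did not pass were CCND1 and CDKN2B. CDK6 rose 1.75-fold and CDK2 1.62-fold, and the other 5 rises were between 1.14-fold and 1.28-fold. With arrays scaled to the spike-in controls, CDK6 and CDK2 still rose and the differences of the other 5 lay below 0. Under that scaling 441 of all 18132 genes rose and 16268 fell. On the values as deposited, the median difference of the 9 genes was 0.31 log2, beside 0.02 over all genes tested. The members were chosen with earlier results of these data known, so these counts and medians describe the list and do not test it. By size of change CDK6 lay at percentile 97.6 of all genes, CDK2 at 96.1 and CCND1 at 15.4. In 7 of the 9 genes the groups did not overlap, as in 50% of all genes.

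**Figure D1:**
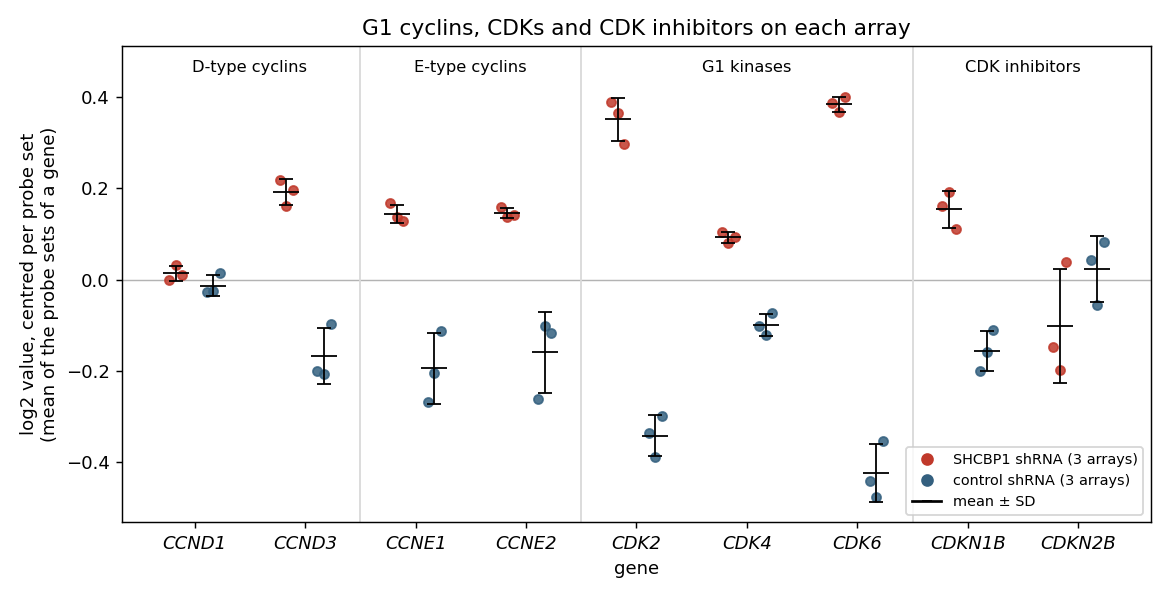
Centred log2 value (y axis) of each measured gene (x axis) on each array, as the mean of its probe sets; red points are the 3 SHCBP1 shRNA arrays, blue points the 3 control shRNA arrays, and bars give the mean ± SD. The groups are farthest apart for CDK6 and CDK2, and they overlap for CCND1 and CDKN2B.

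To show where transcription of these genes begins, the 250 bases before the annotated gene start are printed for 3 members: CDK6, which rose furthest, CDK4, the kinase that rose least, and CDKN2B, which did not pass the test. The sequences are from RefSeq on GRCh38.p14, read 5′ to 3′ on the gene's own strand, which is the minus strand for all 3. CDK6 has 2 annotated starts with a window, and the one farther upstream is shown. Capitals mark the motifs CACGTG (the E-box bound by MYC and related factors) and GGAATG (a TEAD site), or the reverse complement of the second.
CDK6, chr7:92836574-92836823: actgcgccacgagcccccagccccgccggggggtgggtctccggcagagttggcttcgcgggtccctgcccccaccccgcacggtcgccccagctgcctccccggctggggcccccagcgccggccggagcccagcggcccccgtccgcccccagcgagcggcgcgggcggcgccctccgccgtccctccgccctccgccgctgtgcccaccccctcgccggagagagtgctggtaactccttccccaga
CDK4, chr12:57752311-57752560: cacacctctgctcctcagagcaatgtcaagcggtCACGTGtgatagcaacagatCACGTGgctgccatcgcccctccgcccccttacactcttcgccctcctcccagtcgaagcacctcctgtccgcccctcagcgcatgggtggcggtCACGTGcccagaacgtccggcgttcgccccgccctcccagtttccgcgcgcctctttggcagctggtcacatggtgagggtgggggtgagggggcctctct
CDKN2B, chr9:22009306-22009555: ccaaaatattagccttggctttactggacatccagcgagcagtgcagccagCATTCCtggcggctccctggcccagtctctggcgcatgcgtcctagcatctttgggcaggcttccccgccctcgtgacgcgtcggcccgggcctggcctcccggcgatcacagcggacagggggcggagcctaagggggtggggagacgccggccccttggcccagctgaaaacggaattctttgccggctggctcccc

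RefSeq windows of 250 bases before to 50 bases after a gene start were found for 7 of the 10 genes (12 windows) and were searched on both strands. CCND1, CCNE2 and CDK2 had no window, so their promoters were not searched for any motif below. The CDK4 window held CACGTG 3 times, 216, 196 and 101 bases before the gene start. Of 20403 windows of genes on the array, 8.29% held that motif and 0.142% held it at least 3 times. That count of 3 was taken from the CDK4 window after it was searched. The CDK6 window shown had 1 CACGTG, 31 bases after the start and so beyond the printed part. CDKN2B had GGAATG on the opposite strand, 199 bases before the start, and a CCND3 window had it 41 bases before, a motif of 12.1% of all windows. Of the 3 CDKN2C windows, 1 held CACGTG 220 bases before its start, 1 held GGAATG 128 bases before, and 1 held CACGTG 69 and GGAATG 185 bases before. The forkhead motif TGTTTAC, in 2.83% of windows, lay on the opposite strand at another CCND3 start. Read on the gene's own strand, the match began 2 bases before that start. No window of a member held the E2F motifs TTTCGCGC, TTTGGCGC or TTTCCCGC (3.47% of windows hold at least 1), the CRE motif TGACGTCA (2.32%) or the AP-1 motif TGACTCA, whose reverse complement is TGAGTCA (4.09%). A match is a run of letters in a window and not a site shown to be bound.

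Among the kinases, CDK6 (Entrez Gene 1021), partner of the D-type cyclins, had values of 0.39, 0.37 and 0.40 in the SHCBP1 shRNA arrays, against -0.44, -0.48 and -0.35 in the control arrays. All 3 SHCBP1 shRNA arrays lay far above the controls, which were the more scattered group. The difference was 0.81 ± 0.04 log2 (SE, n = 3 per group, with a 95% confidence interval of 0.71 to 0.90, limma adjusted p = 5.42e-06), the 140th largest rise of all genes. All 4 probe sets of CDK6 passed the test on their own. Their differences were 0.64, 0.70, 0.83 and 1.06 log2, and the last of these, a 2.09-fold rise, was the one member probe set above 2-fold. That probe set rose by 0.34 ± 0.07 log2 (SE) more than the mean of the other CDK6 probe sets, a difference that passed limma's test of probe sets against each other (adjusted p = 0.0167).

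CDK2 (Entrez Gene 1017), which acts with cyclins E and A, gave 0.39, 0.36 and 0.30 in the SHCBP1 shRNA arrays and -0.34, -0.39 and -0.30 in the control arrays. Each group was tight and the gap between them was wide. The difference was 0.69 ± 0.04 log2 (SE, n = 3 per group, interval 0.60 to 0.79, limma adjusted p = 1.08e-05). Its 3 probe sets rose by 0.66, 0.68 and 0.74 log2, and none differed from the others by limma's test (adjusted p from 0.423 to 0.804).

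CDK4 (Entrez Gene 1019), the close relative of CDK6, moved far less. Its values were 0.10, 0.080 and 0.094 in the SHCBP1 shRNA arrays and -0.10, -0.12 and -0.074 in the control arrays. The groups did not overlap but lay close together, with a difference of 0.19 ± 0.03 log2 (SE, n = 3 per group, interval 0.12 to 0.27, limma adjusted p = 0.00197). Of its 4 probe sets 3 passed on their own, with rises of 0.20, 0.21 and 0.22 log2. The fourth, whose name ends in _s_at, had a difference of 0.14 log2 and did not pass (limma adjusted p = 0.0567).

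Of the D-type cyclins, CCND3 passed the test and CCND1 did not, and the difference between the 2 genes was not itself tested. CCND3 (Entrez Gene 896), cyclin D3, had 0.22, 0.16 and 0.20 in the SHCBP1 shRNA arrays, against -0.20, -0.21 and -0.10 in the control arrays. The groups were clearly separate, and the difference was 0.36 ± 0.04 log2 (SE, n = 3 per group, interval 0.26 to 0.46, limma adjusted p = 0.0003). That mean joins 2 unlike probe sets. On the first, CCND3 read 0.23, 0.34 and 0.37 in the SHCBP1 shRNA arrays and -0.33, -0.29 and -0.23 in the control arrays, a rise of 0.59 log2 (limma adjusted p = 0.00012). On the other, it read 0.21, -0.019 and 0.019 in the SHCBP1 shRNA arrays and -0.074, -0.12 and 0.034 in the control arrays. There the groups overlapped, with SHCBP1 shRNA replicate 1 alone standing high, and the difference of 0.12 log2 did not pass (limma adjusted p = 0.24). The changes of the 2 probe sets differed by 0.47 ± 0.10 log2 (SE, limma adjusted p = 0.0173).

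CCND1 (Entrez Gene 595), cyclin D1, a main target of mitogen and ERK signalling, had values of -0.0011, 0.031 and 0.010 in the SHCBP1 shRNA arrays and -0.027, -0.026 and 0.014 in the control arrays. The groups overlapped within a narrow band. The difference was 0.03 ± 0.03 log2 (SE, n = 3 per group, interval -0.05 to 0.10, limma adjusted p = 0.579). That interval is for the mean of the probe sets and leaves out the spread between them. The 4 probe sets of CCND1 gave -0.08, -0.02, 0.09 and 0.11 log2 and none passed. The intervals of those at 0.09 and 0.11 reached up to 0.20 and 0.23 log2. Probe sets of both signs were also seen in 42.8% of the 11734 genes with 2 or more.

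Both E-type cyclins rose by similar amounts. CCNE1 (Entrez Gene 898), the activator of CDK2 at the G1/S boundary, had 0.17, 0.14 and 0.13 in the SHCBP1 shRNA arrays and -0.27, -0.20 and -0.11 in the control arrays. CCNE2 (Entrez Gene 9134), its paralogue, had 0.16, 0.14 and 0.14 in the SHCBP1 shRNA arrays and -0.26, -0.10 and -0.12 in the control arrays. For both, the SHCBP1 shRNA arrays were tightly grouped and control replicate 1 was the lowest array. The differences were 0.34 ± 0.05 log2 for CCNE1 (SE, n = 3 per group, interval 0.23 to 0.44, limma adjusted p = 0.000649) and 0.31 ± 0.05 log2 for CCNE2 (SE, n = 3 per group, interval 0.19 to 0.42, limma adjusted p = 0.00146).

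Both CCNE1 probe sets passed on their own, at 0.25 and 0.43 log2. The larger value belongs to a probe set whose name ends in _s_at, a suffix for probes that can match more than 1 transcript. Without _s_at and _x_at probe sets the CCNE1 difference was 0.25 log2 and still passed limma's test (adjusted p = 0.0176). For CCNE2 1 probe set rose by 0.44 log2 (limma adjusted p = 0.000715). The other gave 0.17 log2 and did not pass (adjusted p = 0.0631), and these changes differed by 0.27 ± 0.07 log2 (SE, limma adjusted p = 0.0369).

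The inhibitors did not move as 1 group. CDKN1B (Entrez Gene 1027), which encodes p27, had 0.16, 0.19 and 0.11 in the SHCBP1 shRNA arrays and -0.20, -0.16 and -0.11 in the control arrays. The groups did not overlap, and the difference was 0.31 ± 0.04 log2 (SE, n = 3 per group, interval 0.22 to 0.40, limma adjusted p = 0.000467). Its 2 probe sets rose by nearly the same amount, 0.31 and 0.32 log2. On the values as deposited, this inhibitor gene and the cyclin E and CDK2 genes whose products it binds thus rose on the same arrays. With spike-in scaling CDK2 still rose. CDKN1B, CCNE1 and CCNE2 were then at -0.12, -0.10 and -0.13 log2 and did not pass limma's test.

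CDKN2B (Entrez Gene 1030), which encodes p15 and is known to be induced by TGF-beta and repressed by MYC, had -0.15, -0.20 and 0.038 in the SHCBP1 shRNA arrays and 0.043, -0.057 and 0.083 in the control arrays. SHCBP1 shRNA replicate 3 lay among the controls and apart from the other 2 arrays of its group. The difference of -0.12 ± 0.07 log2 (SE, n = 3 per group, interval -0.28 to 0.03) did not pass limma's test (adjusted p = 0.199). Without that array it was -0.19 log2 and passed (limma adjusted p = 0.0287), and over the 6 fits that leave out 1 array each it ran from -0.19 to -0.08. Without its widest-ranging probe set the CDKN2B difference was -0.011 log2 (limma adjusted p = 0.922).

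The 3 CDKN2B probe sets did not behave alike either. One of them was lower in the SHCBP1 shRNA arrays, at -0.32, -0.36 and -0.043, than in the control arrays, at 0.043, 0.093 and 0.19. It fell by 0.35 log2 (limma adjusted p = 0.017), the one member probe set that fell. Without control replicate 3, SHCBP1 shRNA replicate 1 or SHCBP1 shRNA replicate 2, each left out alone, this fall did not pass limma's threshold. Another had a difference of -0.17 log2 and the last of 0.15 log2, and neither passed (limma adjusted p = 0.119 and 0.186). The falling probe set moved by -0.34 ± 0.07 log2 (SE, limma adjusted p = 0.0212) against the mean of the others, and the one with a positive difference by 0.41 ± 0.08 log2 (SE, limma adjusted p = 0.0156).

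**Figure D2:**
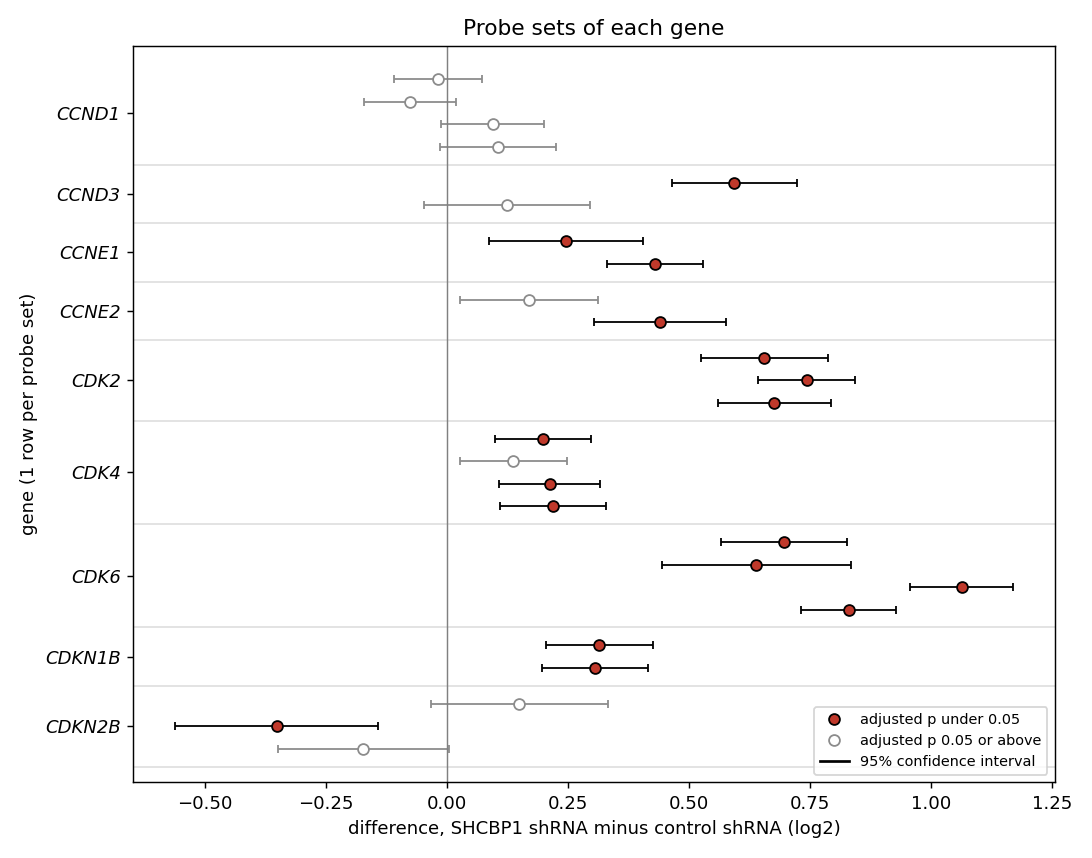
Difference between SHCBP1 shRNA and control shRNA arrays (x axis, log2) for each of the 26 probe sets, grouped by gene (y axis); points are limma estimates, bars their 95% confidence intervals, and filled points have an adjusted p under 0.05. The probe sets of CDK2 and CDKN1B lie close together, those of CCND3 and CDK6 are spread, and those of CDKN2B lie on both sides of 0.

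Over the 26 probe sets, 16 rose and 1 fell, where 19.9% and 18.1% of 49293 probe sets on the array did. Every probe set rose for 4 genes (CCNE1, CDK2, CDK6 and CDKN1B), as for 9.91% of genes with 2 or more probe sets. When each probe set was set against the others of its gene, 7 of the 26 differed by limma's test, from CCND3, CCNE2, CDK6 and CDKN2B, against 16.3% of probe sets over all genes. The 2 probe sets of CCND3, and likewise those of CCNE2, are 1 comparison seen from both sides.

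In order of change the genes ran CDK6, CDK2, CCND3, CCNE1, CDKN1B, CCNE2, CDK4, CCND1 and CDKN2B. The within-array difference of CDK6 and CDK2 changed by 0.12 ± 0.04 log2 (SE, n = 3 per group) and its groups did not overlap. CDK2 and CCND3 were 0.33 ± 0.04 log2 apart (SE, n = 3 per group). From CCND3 through CCNE1 and CDKN1B to CCNE2, neighbours differed by 0.0052 to 0.027 log2, less than their standard errors of 0.024 to 0.042, and the groups overlapped. CCNE2 and CDK4 differed by 0.11 ± 0.05 log2 (SE, n = 3 per group), and CDK4 and CCND1 by 0.17 ± 0.02 log2 (SE, n = 3 per group), both without overlap. CCND1 and CDKN2B differed by 0.15 ± 0.08 log2 (SE, n = 3 per group), and there the groups overlapped. No p is given for these differences, since the order was read from the same values.

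The control arrays carried more of the scatter for several members. Control replicate 3 was the highest control array for 8 of the 9 genes, all but CCNE2, while it was highest for 39.2% of all genes. Leaving it out raised the difference of each gene whose groups were separate, to at most 0.84 log2 for CDK6, and left all 7 rises past limma's threshold.

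The other genes of the same system moved in both directions, as genes of the whole array did. The counts of each list below stand beside 22% of all genes called higher and 19% called lower. Of 8 tested genes of the G1 cyclin, CDK and inhibitor families outside the list, 2 rose and 3 fell, with a median difference of 0.06 log2. The INK4 inhibitor gene CDKN2D (p19) averaged 0.47 in the SHCBP1 shRNA arrays and -0.57 in the control arrays, a rise of 1.04 ± 0.08 log2 (SE, limma adjusted p = 3.09e-05) that rests on 1 probe set. CDC25A, the phosphatase that activates CDK2, rose by 0.72 ± 0.04 log2 (SE, limma adjusted p = 7.77e-06). The fallers included the p27 relatives CDKN1C (p57) at -0.62 ± 0.04 log2 and CDKN1A (p21) at -0.55 ± 0.04 log2 (SE, limma adjusted p = 1.06e-05 and 4.47e-05), which were singled out after their values were seen. Within the CIP/KIP family CDKN1B thus rose where CDKN1A and CDKN1C fell, on the values as deposited; with spike-in scaling CDKN1B was at -0.12 log2. CCND2 (0.03 log2) and CDKN2A (0.11 log2) did not pass.

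Of 6 genes for the CDK-activating kinase and the chaperones of CDKs, 4 rose and 2 fell, with a median of 0.14 log2. The assembly factor gene MNAT1 rose by 0.60 ± 0.04 log2 and the kinase gene CDK7 fell by 0.55 ± 0.05 log2 (SE, limma adjusted p = 1.84e-05 and 0.000102), each on 1 probe set. Of 13 genes for ubiquitin ligases that remove p27, cyclin E and cyclin D, 5 rose and 3 fell, with a median of 0.08 log2. CKS2, of the CKS family of small CDK-binding proteins, rose by 0.37 ± 0.04 log2, on 1 probe set, and the ligase subunit RBX1 by 0.36 ± 0.03 log2 (SE, limma adjusted p = 0.000122 and 7.5e-05). SKP2, which recognises p27 for destruction, fell by 0.25 ± 0.04 log2 (SE, limma adjusted p = 0.00207) and was singled out after its value was seen. CKS1B and CUL1 of the same list rose, by 0.28 ± 0.04 and 0.18 ± 0.04 log2 (SE, limma adjusted p = 0.000556 and 0.0073). They too were singled out after their values were seen.

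Among 19 known transcriptional regulators of these genes, 4 rose and 7 fell, with a median of -0.06 log2. MYC averaged -0.63 in the SHCBP1 shRNA arrays and 0.58 in the control arrays, a fall of 1.21 ± 0.05 log2 (SE, limma adjusted p = 1.91e-06) that rests on 1 probe set. E2F2, an activator of the E-type cyclins, rose by 0.72 ± 0.04 log2 (SE, limma adjusted p = 8.61e-06). The other E2F genes listed parted. E2F1 rose by 0.58 ± 0.09 log2, on 1 probe set, and E2F3 fell by 0.33 ± 0.04 log2 (SE, limma adjusted p = 0.00099 and 0.000397). Both were singled out after their values were seen. CDK4, a known MYC target, rose slightly on the values as deposited (-0.24 log2 with spike-in scaling) while MYC itself was lower. A link between these changes was not tested.

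Of 8 cyclins, CDKs and regulators of the later phases, 2 rose and 2 fell, with a median of -0.0063 log2. WEE1, the kinase that inhibits CDK1 and CDK2, rose by 0.88 ± 0.04 log2, on 1 probe set, and CCNF fell by 0.45 ± 0.04 log2 (SE, limma adjusted p = 1.88e-06 and 8.53e-05). Of 24 transcriptional and other cyclins and CDKs 6 rose and 10 fell, with a median of -0.02 log2, led by CCNG1 at 0.66 ± 0.04 log2 and the Mediator cyclin CCNC at -0.63 ± 0.04 log2 (SE, limma adjusted p = 1.08e-05 and 1.01e-05). The 3 proliferation markers split: the replication clamp gene PCNA rose by 0.71 ± 0.04 log2 and MKI67 fell by 0.48 ± 0.04 log2 (SE, limma adjusted p = 6.38e-06 and 3.03e-05), while TOP2A, at 0.04 log2, did not pass. Of the lineage markers, FOXE1 rose among 5 thyroid genes tested (0.24 log2) and CDX2 among 6 colorectal genes (0.12 log2), each on 1 probe set.

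**Figure D3:**
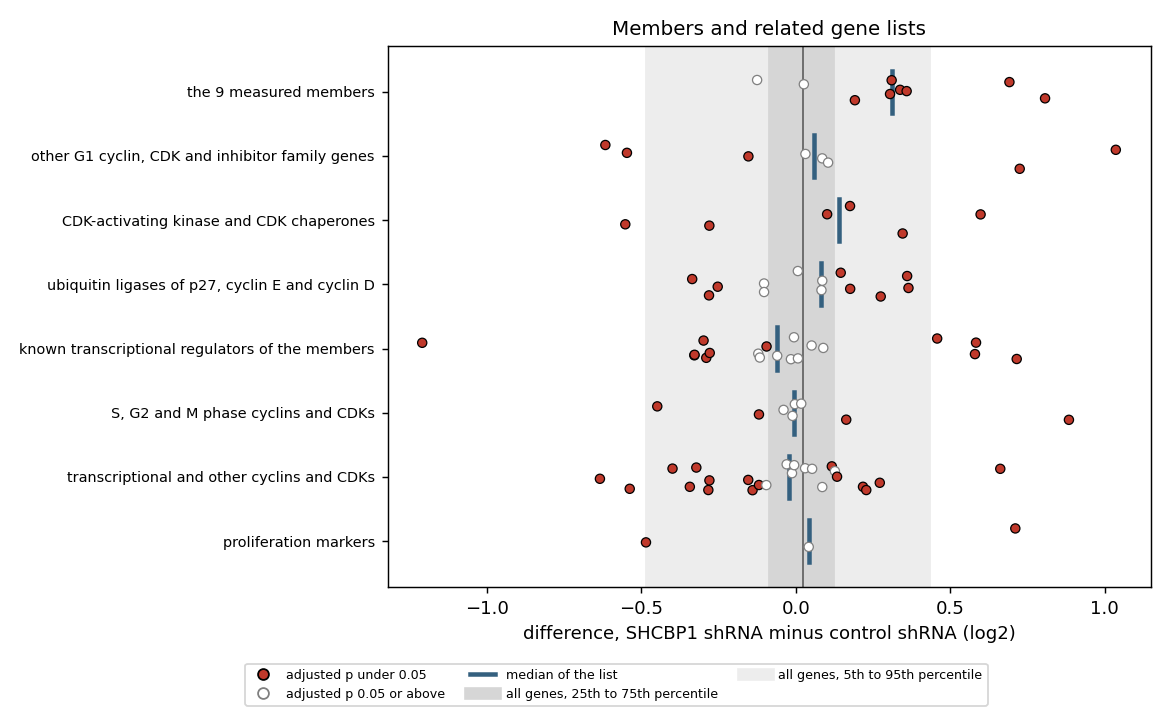
Difference between SHCBP1 shRNA and control shRNA arrays (x axis, log2) for the 9 measured members and for related gene lists (y axis), 1 point per gene, filled where the adjusted p is under 0.05; blue bars mark list medians, and grey bands the 25th to 75th and 5th to 95th percentiles of all genes. The member median lies at 0.31 log2, and the medians of the related lists lie between -0.06 and 0.14. Members and lists were chosen with earlier results of these data known.

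The scaling of the arrays set how most member changes read. Scaling to the spike-in controls lowers every gene by 0.43 log2. Of 18132 genes, limma's test then called 441 higher and 16268 lower, and the member calls below stand beside these counts. CDK6 and CDK2 were the members that still rose, by 0.37 log2 (interval 0.26 to 0.49) and 0.26 log2 (interval 0.14 to 0.38, limma adjusted p = 7.31e-05 and 0.00111). CDK4, CCND1 and CDKN2B were then lower, at -0.24, -0.41 and -0.56 log2 (limma adjusted p = 0.00132, 4.06e-05 and 3.06e-05). CCND3, CCNE1, CCNE2 and CDKN1B had differences from -0.13 to -0.07 log2 and did not pass. The order of the genes is the same under both scalings, since every gene shifts alike.

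**Figure D4:**
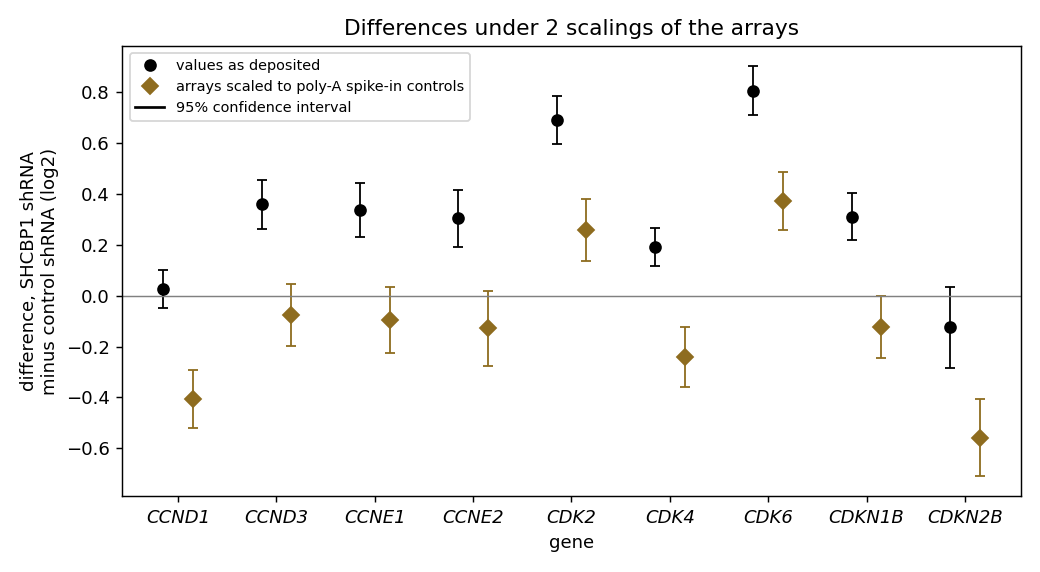
Difference between SHCBP1 shRNA and control shRNA arrays (y axis, log2) for each measured gene (x axis) with the values as deposited (black circles) and with arrays scaled to the poly-A spike-in controls (brown diamonds); bars are 95% confidence intervals. CDK2 and CDK6 lie above 0 under both scalings.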

How the data were processed

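Each of 6 RNA samples had its own Affymetrix PrimeView array, and groups come from the sample titles. The deposited table holds log2 values that the authors made with RMA, per the submitters' processing notes; log2 was taken because RMA uses it. All 49395 probe sets have a median of 0 over the arrays, so values were centred before deposit. RMA evens out the distributions of arrays, so a shift common to all genes would not show. Neither that step nor a software version is stated in the labels. The number of arrays limits the precision.

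Gene names come from the platform annotation. Probe sets with several symbols (1832) or none (2473) and 102 controls were left out of the gene fit. Each gene is the mean of its probe sets, and a filter on dim probe sets could not be applied to centred values. SHCBP1 shRNA minus control shRNA was fitted two-sided and unpaired with limma 3.58.1 (lmFit, then eBayes; R 4.3.3) over 18132 genes, and separately over 49293 probe sets and over 38590 within-gene differences between probe sets. Benjamini-Hochberg adjustment ran over each whole table, with a threshold of 0.05. Scripts were tested on simulated data. Differences between arrays had an SD of 0.105 to 0.111 within groups and 0.302 to 0.309 between them, so no array repeats another. The members and lists were chosen with earlier results of these data known. All members are named, and from each other list the 2 largest differences past the threshold, except where marked.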

Additional observations from a re-analysis of the deposited data

How the results depend on the processing

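In limma's test 7 members rose and 0 fell under array weights, quantile normalization run again, median-centred arrays, robust moderation, the median of probe sets, leaving out _s_at and _x_at probe sets, and leaving out the widest-ranging probe set of genes with 3 or more. Without 1 array each, 7 members rose and 0 to 1 fell, and 15 to 16 member probe sets rose and 0 to 2 fell; the 1 fall is CDKN2B without SHCBP1 shRNA replicate 3. The falling CDKN2B probe set was not called without control replicate 3, SHCBP1 shRNA replicate 1 or SHCBP1 shRNA replicate 2. With arrays scaled to the spike-in controls, 2 members rose and 3 fell, and over all genes 441 rose and 16268 fell. CCND1 (-0.41), CCND3 (-0.075), CCNE1 (-0.10), CCNE2 (-0.13), CDK4 (-0.24) and CDKN1B (-0.12) then changed sign, by construction of a shift of all genes. A filter on dim probe sets was not run, since centred values hold no level. Replicate numbers are shared between groups, and the deviations of same-numbered arrays correlated at 0.018, -0.0462 and 0.0674. With 3 arrays a group, these values cannot tell whether same-numbered samples shared a culture or batch. With the number as a block, 7 members rose, 0 fell, and 3783 genes rose and 3309 fell over all, beside 3992 and 3448 without it. With 3 arrays a group, intervals of single members span about 0.15 to 0.32 log2.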
